A study of Mus musculus with 12 samples.

Results

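The regions described here carried acetylation of histone H3 at lysine 27 (H3K27ac) in fibro-adipogenic progenitors (FAPs) of old mdx mice treated with trichostatin A (TSA), and had no called peak in the 3 other H3K27ac libraries of the study. Peaks of the 4 H3K27ac libraries were merged where they shared at least 1 bp or touched, on chromosomes 1 and 2 and on chromosome 3 up to position 122275556, the stretch that all 4 peak lists cover. This gave 8704 regions, of which 902 (10.4%) had a peak in the old TSA library alone. Since the members were chosen by where peaks were called, their presence in old TSA and absence elsewhere is the choice itself and not a result.

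The mice were C57Bl6 mdx animals, a model of Duchenne muscular dystrophy without dystrophin, so that all 4 groups share the mutation and no group is free of disease. The groups were old mice given TSA (12 months of age, 0.6 mg/kg/day), old mice given vehicle (12 months, saline), young mice given TSA (1.5 months, 0.6 mg/kg/day) and young mice given vehicle (1.5 months, saline), with 15 days of daily intraperitoneal injection in each case before the cells were sorted by flow cytometry. Each group had 1 library per mark, either H3K27ac or H3K9/14ac (acetylation at lysines 9 and 14), and 4 input samples were not used here. The sorting gate, and how many animals gave a library, are not given in the sources used here. With 1 library per group there is no replicate and no test between groups; differences are differences between single libraries, and the intervals given with shares are exact binomial 95% intervals that cover counting error only. Neighbouring regions also share their locus, so they are not independent.

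H3K27ac is laid down by the acetyltransferases p300 and CBP and marks active enhancers and promoters, whereas H3K9/14ac is found mainly at active promoters. TSA blocks histone deacetylases of class I and II, the enzymes that remove these groups. FAPs are the mesenchymal cells of skeletal muscle that support repair of fibres, and in dystrophic muscle they also give rise to adipocytes and matrix-producing fibroblasts. In mdx mice, deacetylase inhibitors are known to favour repair over fat and scar when given early in the disease, and to lose much of that effect late.

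Promoters that such a region covered in part or whole are shown first, because they let the sequence be read beside the peak. Each line gives the RefSeq promoter window of GRCm38.p6, 250 bases before and 50 after an annotated start, 5′ to 3′ on the strand of the gene, with the bases inside the old TSA peak in capitals. Hmcn2 (chr2:31314082-31314381, plus strand) is shown because its locus held the most members, Gsn (chr2:35256109-35256408, plus strand) because it marks FAPs, Bag2 (chr1:33757701-33758000, minus strand) and Cd82 (chr2:93461802-93462101, minus strand) because H3K9/14ac was there in all 4 libraries, and Kcnt2 (chr1:140245468-140245767, plus strand) because its window lay wholly inside a member.
Hmcn2: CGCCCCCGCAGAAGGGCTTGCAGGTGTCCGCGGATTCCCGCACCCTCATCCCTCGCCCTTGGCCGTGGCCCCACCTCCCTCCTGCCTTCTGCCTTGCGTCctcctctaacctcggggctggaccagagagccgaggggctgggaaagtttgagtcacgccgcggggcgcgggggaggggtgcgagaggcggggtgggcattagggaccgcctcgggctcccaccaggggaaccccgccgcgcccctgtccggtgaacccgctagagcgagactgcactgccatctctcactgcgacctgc
Gsn: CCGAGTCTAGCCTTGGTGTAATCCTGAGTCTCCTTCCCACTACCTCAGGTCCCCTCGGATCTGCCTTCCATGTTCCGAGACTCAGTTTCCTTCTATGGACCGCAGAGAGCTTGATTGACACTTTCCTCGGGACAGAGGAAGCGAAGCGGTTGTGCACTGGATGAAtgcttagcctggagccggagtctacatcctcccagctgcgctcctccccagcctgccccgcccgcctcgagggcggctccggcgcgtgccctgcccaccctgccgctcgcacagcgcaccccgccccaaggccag
Bag2: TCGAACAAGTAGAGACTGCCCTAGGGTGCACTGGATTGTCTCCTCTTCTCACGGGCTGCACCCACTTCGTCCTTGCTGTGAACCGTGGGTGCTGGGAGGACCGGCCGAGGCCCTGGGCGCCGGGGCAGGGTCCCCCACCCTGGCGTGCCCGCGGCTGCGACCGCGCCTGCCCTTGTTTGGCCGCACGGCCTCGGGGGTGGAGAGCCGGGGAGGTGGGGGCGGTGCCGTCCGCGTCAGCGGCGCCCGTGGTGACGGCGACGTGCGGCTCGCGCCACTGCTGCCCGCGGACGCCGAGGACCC
Cd82: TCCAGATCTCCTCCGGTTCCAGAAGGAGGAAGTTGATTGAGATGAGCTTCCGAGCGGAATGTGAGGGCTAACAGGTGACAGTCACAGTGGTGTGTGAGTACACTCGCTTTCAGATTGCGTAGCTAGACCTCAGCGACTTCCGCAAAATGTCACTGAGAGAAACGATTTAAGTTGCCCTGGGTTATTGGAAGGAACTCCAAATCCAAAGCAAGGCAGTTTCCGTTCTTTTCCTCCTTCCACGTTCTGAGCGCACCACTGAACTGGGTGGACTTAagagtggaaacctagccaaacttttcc
Kcnt2: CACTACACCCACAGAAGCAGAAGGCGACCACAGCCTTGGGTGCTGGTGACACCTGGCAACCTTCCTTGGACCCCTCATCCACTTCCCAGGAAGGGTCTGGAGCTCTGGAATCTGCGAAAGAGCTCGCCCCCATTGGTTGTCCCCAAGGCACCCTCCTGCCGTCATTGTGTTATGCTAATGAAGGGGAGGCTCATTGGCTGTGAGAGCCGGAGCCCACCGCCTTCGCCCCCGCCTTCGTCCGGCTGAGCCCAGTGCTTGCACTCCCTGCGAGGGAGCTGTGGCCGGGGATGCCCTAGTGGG

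In Hmcn2 and Gsn the capitals end before the start site. The member lay upstream there, with 100 of 300 bases of the window inside it at Hmcn2 and 165 at Gsn. In Cd82, 273 bases were inside the member, and in Bag2 and Kcnt2 all 300. Of 3190 protein-coding genes with such a window, 44 had one that overlapped a member, and 5 had one wholly inside. The 48 windows of these 44 genes had a median G+C content of 63.7% and a median of 20.5 CpG dinucleotides. The corresponding medians were 61.3% and 22 in the 1629 windows with a region of all 4 libraries, and 50.7% and 5 in the 2034 windows with no H3K27ac region. The letters GGGCGG, the core of a GC box, stood on either strand in 68.8% of the windows with a member, in 66.2% of those with a region of all 4 libraries, in 26.7% of those with no region and in 45.2% of all windows. TGANTCA, the letters of an AP-1 site, stood in 8.33% of the windows with a member (4 of 48), in 5.03% of those with a region of all 4 libraries and in 7.77% of all windows. Of the 48 windows with a member, 21 also overlapped a region of all 4 libraries. The 27 that did not had a median G+C content of 62.0%, a median of 14 CpG dinucleotides and GGGCGG in 51.9%, values between those of windows with no region and, except for G+C content, those of windows acetylated in every library. Of 161 miRNA hairpins in the stretch, 21 overlapped some H3K27ac region and 0 overlapped a member.

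The patterns of all regions place the members in the study. Regions with a peak in only 1 library numbered 902 in old TSA, 119 in old vehicle, 154 in young TSA and 1475 in young vehicle, against 3706 with a peak in every library. The lists differ in length, with 7571 old TSA, 5727 old vehicle, 5945 young TSA and 7891 young vehicle peaks in the stretch, which held 1497491, 952786, 1376021 and 1659160 tags (aligned reads counted in peaks) in that order. The longer lists had the larger numbers of regions of their own; the part of list length was not tested. Old TSA and young vehicle, the libraries with the longest lists, shared a further 514 regions that had no peak in the other two.

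**Figure D1:**
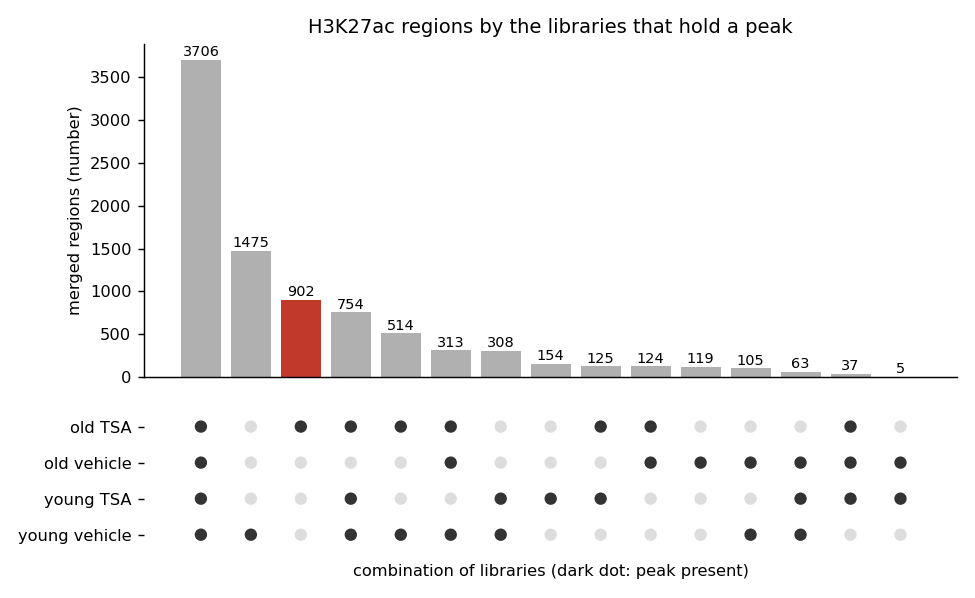
Number of merged H3K27ac regions for each pattern of libraries with a peak, on chromosomes 1, 2 and part of 3. The 902 regions of old TSA alone are the third largest pattern, after 3706 with a peak in every library and 1475 of young vehicle alone.

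Members were short and weak peaks. Each consisted of 1 old TSA peak. Their median width was 335 bp (quartiles 233 and 465 bp, range 147 to 2115 bp), and their median tag count was 49 (quartiles 38 and 64, range 22 to 262). The other 6669 old TSA peaks had a median of 745 bp and 129 tags. Per 100 bp the difference was smaller, with a median of 14.8 tags in members and 17.6 in the other old TSA peaks. The members made up 11.9% of the old TSA peaks, 4.94% of the bases these covered (341 kb) and 3.28% of their tags. Only 53 members (5.88%) held 100 tags or more, against 4086 (61.3%) of the other old TSA peaks. When the old TSA peaks were ranked by tags into 10 groups of nearly equal size, members were 45.0% of the group with the fewest tags, 30.3% of the next, 6.34% of the fifth and 0% of the 2 groups with the most. Regions of 1 library alone were alike in size in the other libraries, with median widths of 248 bp in old vehicle, 317.5 bp in young TSA and 358 bp in young vehicle, and with 40, 49.5 and 51 tags in that order.

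**Figure D2:**
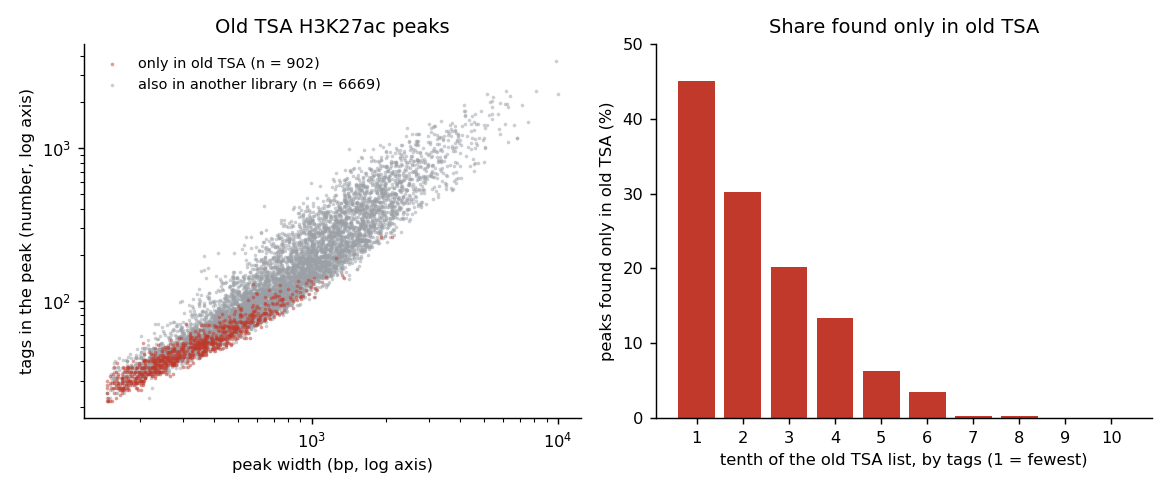
Left, tags against width in bp (log axes) for members (red) and the other old TSA peaks (grey). Right, the percentage of members among old TSA peaks in 10 groups ranked by tags. Members sit at the low end, at a median of 335 bp and 49 tags against 745 bp and 129 tags, and their share runs from 45.0% down to 0%.

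Member tags were scaled to each other library and set beside the weakest peaks of its list. In the 3706 regions with a peak in every library, the median log2 ratio of tags to old TSA was -0.50 in old vehicle, -0.03 in young TSA and 0.10 in young vehicle. Scaled by these ratios, 498 members (55.2%) would hold fewer tags than the 5th percentile of the old vehicle peaks (36 tags), and 116 fewer than its weakest peak (23 tags). The corresponding numbers were 347 (38.5%) and 5 for young TSA, and 137 (15.2%) and 0 for young vehicle. More members than not were thus of a strength at which the old vehicle library had few peaks called, and the part of depth in their absence there was not tested. In addition, these are bulk samples, in which fewer cells with a mark and less of it per cell cannot be told apart.

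Many members lay close beside a peak of another library. The median distance to the nearest such peak was 1390.5 bp (quartiles 257 and 11947 bp, range 5 to 840449 bp). Within 1000 bp lay 418 members (46.3%), a further 235 lay farther away but within 10000 bp, and 249 (27.6%) lay beyond 10000 bp. By library, the median distance was 5813 bp to an old vehicle peak, 5196 bp to a young TSA peak and 2253 bp to a young vehicle peak. Regions of young vehicle alone lay at a similar median of 1627 bp from a peak of another library. The members closest to such a peak were near Lyplal1 (5 bp), Sestd1 (7 bp), Fam171a1 (16 bp), 3110040M04Rik (18 bp) and Tspan2 (20 bp), so that a few more bases would have put them into a shared region. The farthest was a 373 bp peak of 53 tags, 840449 bp from any peak of another library and 50320 bp from Rprm, a gene induced by p53. Others far away were a pair inside Nckap5 (78 and 57 tags, 261937 and 261386 bp away), a peak nearest to Intu (47 tags, 257469 bp), which acts in formation of cilia, and a peak nearest to Tbx15 (72 tags, 255105 bp), a T-box factor of limb and skeletal mesenchyme. In all, 77 members (8.54%) lay beyond 50000 bp. Members beyond 10000 bp were of much the same size as those within 1000 bp, with medians of 351 bp and 51 tags against 322.5 bp and 48 tags.

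**Figure D3:**
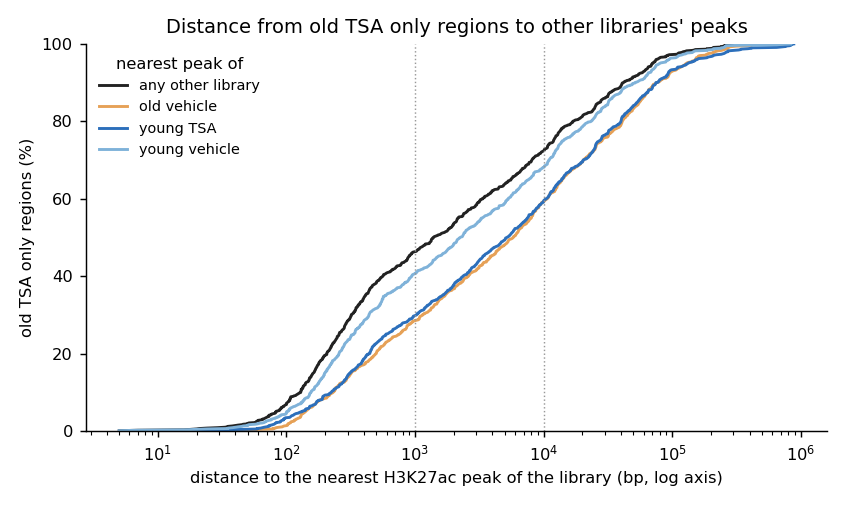
Cumulative percentage of members against the distance in bp (log axis) to the nearest H3K27ac peak of any other library, and of each other library by itself; dotted lines mark 1000 and 10000 bp. The median is 1390.5 bp to any other library, and it is shorter to young vehicle (2253 bp) than to old vehicle (5813 bp) or young TSA (5196 bp).

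Members lay away from gene ends more than the common regions did. A gene end is taken as 1000 bp either side of either annotated end of a protein-coding gene, since strand is not in the gene table used. Of the 902 members, 113 (12.5%, interval 10.4 to 14.9%) overlapped a gene end, 463 (51.3%, 48.0 to 54.6%) lay inside a gene and 326 (36.1%, 33.0 to 39.4%) outside. Of the 3706 regions with a peak in every library, 46.6% lay at a gene end, 33.5% inside a gene and 19.9% outside. Those regions were wider, with a median of 1492.5 bp against 335 bp, and a wider region overlaps a gene end more readily. The part of width in this difference was not tested. Regions of young vehicle alone had 6.44% at a gene end, 65.1% inside a gene and 28.5% outside. Compared with those, members lay more often at gene ends and outside genes and less often inside, by more than the counting intervals. Regions of old vehicle alone (8.40%, interval 4.10 to 14.9%) and of young TSA alone (9.74%, 5.55 to 15.6%) were fewer, and their shares at gene ends had intervals that overlap that of the members. The members were spread over the chromosomes, with 326 on chromosome 1, 384 on chromosome 2 and 192 on chromosome 3, which is 10.4%, 10.6% and 9.80% of the regions there. Of all members, 671 lay in or within 10000 bp of a protein-coding gene, and 71 lay beyond 100000 bp. The most remote from a gene were on chromosome 2 between Dhx35 and Gm826, up to 694090 bp away, and 589400 bp from Zeb2, a repressor of E-cadherin in mesenchymal cells.

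H3K9/14ac was not used in choosing the members and can be read as an independent measure of the same loci, again with 1 library per group. On the stretch that all 8 peak lists cover, which ends at position 167064301 of chromosome 2, there were 665 members among 6406 H3K27ac regions. An old TSA peak of H3K9/14ac overlapped 80 of the 665 members (12.0%, interval 9.66 to 14.7%), against 32.7% of all regions. The share in members was 31.1% with the upper 50% of each H3K27ac list by tags and 19.9% with lists of equal length by tags. The share of all regions was not computed under these settings, so whether the gap changes with the weak peaks was not tested. Members with an H3K9/14ac peak numbered 90 (13.5%) in old vehicle, 85 (12.8%) in young TSA and 52 (7.82%) in young vehicle. The shares of all regions were 34.5% in old vehicle, 36.3% in young TSA and 31.2% in young vehicle. H3K9/14ac at the members was therefore not found more often in old TSA than in old vehicle or young TSA. Over all regions, too, the old TSA share was below those of old vehicle and young TSA. The H3K9/14ac lists had 2474 old TSA, 3235 old vehicle, 3336 young TSA and 2711 young vehicle peaks in this stretch. These covered 2.55, 2.42, 2.79 and 2.33 Mb in that order. For this mark old TSA thus had the fewest peaks, but they covered more bases than those of old vehicle or young vehicle. Of the 665, 542 had no H3K9/14ac peak in any library, 42 had one in every library, 10 had one in old TSA alone, and 43 had one in some other library and none in old TSA. Regions of young TSA alone (124) had H3K9/14ac at 4.84% in old TSA, 9.68% in old vehicle, 15.3% in young TSA and 7.26% in young vehicle, and at 19.4% in any library, against 18.5% of the members. Regions of young vehicle alone had fewer, at 4.98% in old TSA, 4.24% in old vehicle, 5.62% in young TSA and 5.71% in young vehicle.

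Members at gene ends had H3K9/14ac more often than the other members. Of 74 members at a gene end, 44 (59.5%, interval 47.4 to 70.7%) had an H3K9/14ac peak in old TSA, 40 in old vehicle, 44 in young TSA and 26 in young vehicle. Inside genes 22 of 360 (6.11%) had one in old TSA, and outside genes 14 of 231 (6.06%). The same split was not made for other H3K27ac regions, so whether it is particular to the members was not tested. The labels of the H3K9/14ac libraries were taken as given. Over the 1709 regions that all of them share, the rank correlation of tags was 0.879 between old TSA and old vehicle and was highest between old vehicle and young TSA (0.911), whereas for H3K27ac it was highest within an age (0.931 between old TSA and old vehicle, 0.950 between young TSA and young vehicle). These are descriptions over regions of the same libraries. Old vehicle with young vehicle was as low for H3K9/14ac, at 0.879.

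**Figure D4:**
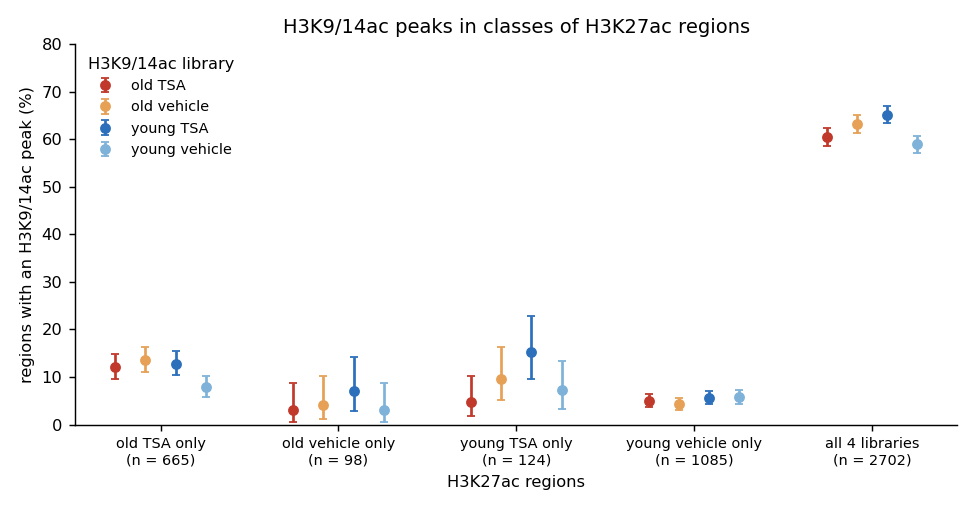
Percentage of H3K27ac regions overlapped by an H3K9/14ac peak of each library, with exact binomial 95% intervals, in regions of old TSA alone, of each other library alone and of all 4 libraries. In regions of old TSA alone the old TSA value (12.0%) lies between those of old vehicle (13.5%) and young vehicle (7.82%).

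A group of promoters had H3K9/14ac in every library and H3K27ac in old TSA alone. Of the 27 members at a gene end that lay beyond 10000 bp of any H3K27ac peak of another library, 19 were in the stretch of all 8 lists, and 10 of these had an H3K9/14ac peak in all 4 libraries, 6 in none and 3 in some other pattern. Among the 10 were those at Bag2, a co-chaperone of Hsp70, Slc40a1, which encodes the iron exporter ferroportin, Gpc1, a heparan sulphate proteoglycan, Epb41l5, Vsig8, Catspere2, Tmem141, Cd82, a tetraspanin, and Bmp2, a ligand of bone morphogenetic protein signalling. At Bmp2 the member (chr2:133552175-133552919) had 116 H3K27ac tags in old TSA and no peak in old vehicle, young TSA or young vehicle, and the next H3K27ac peak of another library was 108120 bp away. The overlapping H3K9/14ac peaks at Bmp2 held 196 tags in old TSA, 288 in old vehicle, 254 in young TSA and 83 in young vehicle. At Slc40a1 the member had 60 H3K27ac tags, and the H3K9/14ac peaks held 166 tags in old TSA, 309 in old vehicle, 273 in young TSA and 182 in young vehicle. For both genes H3K9/14ac was present in all 4 libraries and had more tags in old vehicle than in old TSA; these are raw tags, and the H3K9/14ac peaks of the stretch held 426273 tags in old TSA and 608674 in old vehicle. The Bag2 and Cd82 members, whose promoters are printed above, had 55 and 73 H3K27ac tags and lay 36875 and 127360 bp from a peak of another library.

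Both marks were found in old TSA alone at 10 of the 665 members (1.50%), and the same share of all regions was not computed. The one with the most H3K27ac tags was upstream of Hmcn2 (chr2:31313534-31314181), with 105 tags of H3K27ac and 130 of H3K9/14ac. Others lay at or nearest to Fmo2 (95 H3K27ac tags), Slc2a8 (64), Ak1 (57), 4930523C07Rik (52), Dut (38), Kiz (27), 1700001O22Rik (25) and En1 (22). Of these 10 members, 8 lay within 1000 bp of an H3K27ac peak of another library, at distances of 73 to 671 bp. Those of Fmo2, a flavin-containing monooxygenase, and Ak1, adenylate kinase 1, lay at 5065 and 2450 bp. Within 10000 bp of Hmcn2 and inside it, H3K9/14ac was found in every library. It covered 2219 bp in old TSA, 2654 bp in old vehicle, 2513 bp in young TSA and 1722 bp in young vehicle. The strongest members at a gene end were those of Sord (127 tags), the enzyme that oxidises sorbitol, Nceh1 (120), a cholesterol ester hydrolase, Bmp2 (116), Rem1 (111) and Kcna2 (108), a voltage-gated potassium channel. Sord and Rem1 lay 168 and 67 bp from a peak of another library, whereas Nceh1, Bmp2 and Kcna2 lay 9725, 108120 and 111483 bp away.

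The 3 members with the most tags lay at Col6a3, Gli2 and Hmcn2. The first (chr1:90789142-90791256) was 2115 bp wide with 262 tags, inside Col6a3, which encodes the alpha 3 chain of collagen VI, and was 13328 bp from a peak of another library. The second (chr1:118981498-118983416) was 1919 bp wide with 259 tags, inside Gli2, a transcription factor of the Hedgehog pathway, and 4420 bp away. The third (chr2:31309364-31310621) was 1258 bp wide with 191 tags, 3634 bp outside Hmcn2, which encodes hemicentin 2 of the extracellular matrix. Next came members nearest to Gm5148 (147 tags), Raph1 (142), Etnk2 (141), Lbp (141), Fbln7 (136), Kirrel (135) and Ldlrad3 (134). Among the widest were also members in Bcl2 (1103 bp), an inhibitor of cell death, and Slc43a3 (1028 bp). The Bcl2 member had H3K9/14ac in every library, while those of Col6a3 and Gli2 had none in any.

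By gene, members were spread thinly, with a few loci that held many. Of 3789 protein-coding genes in the stretch, 521 (13.8%) had a member in the gene or within 10000 bp of it. That is 21.7% of the 2405 genes that had any H3K27ac region there. Of the 521, 347 had 1 member, 109 had 2 and 65 had 3 or more. Windows of adjacent genes overlap, so a peak can count for several genes, and long genes have more room. The acetylated length given for a gene is the number of bp under H3K27ac peaks in this window. In old TSA it includes the members, which by the rule add to that library alone. A longer old TSA length is therefore in part the choice of members. Over the whole stretch, H3K27ac peaks covered 6.91 Mb in old TSA, 4.83 Mb in old vehicle, 5.99 Mb in young TSA and 8.05 Mb in young vehicle. The median acetylated length over all protein-coding genes was 973, 595, 917 and 1122 bp in that order. Lengths of single genes and of gene groups are to be read beside these, since old vehicle was the lowest library in general. The order of libraries without the members is given below for genes where old TSA was the longest.

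Hmcn2 stood first with 14 members, which covered 6349 bp. Its acetylated length was 14203 bp in old TSA, 7051 bp in old vehicle, 5011 bp in young TSA and 6623 bp in young vehicle. The peaks there held 2412, 1048, 876 and 1004 tags in the same order of libraries. Outside the members old TSA had 7854 bp there, so that most of its excess over the other libraries consists of the members themselves. Peaks shared with the other libraries stood just upstream, at the start and inside the gene, and of the members 3 lay upstream and the other 11 inside the gene. Gli2 had 5 members, and its acetylated length was 8322 bp in old TSA, 2683 bp in old vehicle, 4791 bp in young TSA and 4124 bp in young vehicle (1408, 414, 769 and 612 tags). Outside the members it was 5048 bp in old TSA. Its shared peaks lay mostly toward the end with the higher coordinate, and its members lay inside the gene.

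**Figure D5:**
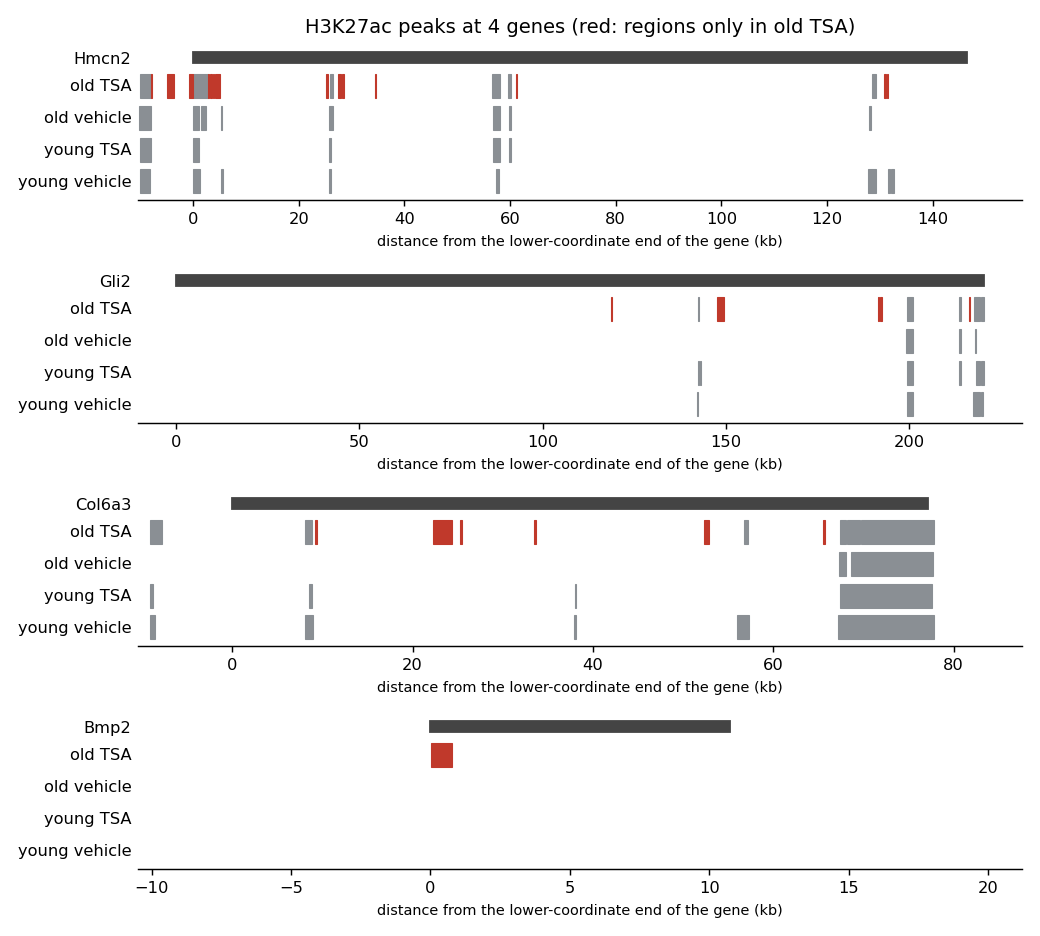
H3K27ac peaks of each library at Hmcn2, Gli2, Col6a3 and Bmp2, against the distance in kb from the end of the gene with the lower coordinate (dark bar, the gene; red, members; grey, other peaks, the narrowest drawn slightly wider than to scale). The 14 members of Hmcn2 lie upstream of and inside the gene, while the Bmp2 locus shows 1 old TSA peak of 116 tags and none in the other libraries.

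Ralgps1, a guanine nucleotide exchange factor for Ral, had 8 members in its window, 4 of which lay at Angptl2 and 2 at an end of Garnl3. Its acetylated length was 19081 bp in old TSA, 10218 bp in old vehicle, 12241 bp in young TSA and 15469 bp in young vehicle. Col6a3 had 6 members, and its length was 16385 bp in old TSA, 9867 bp in old vehicle, 10925 bp in young TSA and 13682 bp in young vehicle. Tmcc2, with 6 members, had 12025, 6658, 6061 and 8137 bp in that order, and Pld1, a phospholipase with 6 members, had 10228, 5641, 5768 and 7366 bp. Tns1, which encodes tensin 1 of focal adhesions, had 6 members within 57985 bp in old TSA, against 35890, 44108 and 51134 bp in the others. Kirrel, an adhesion protein of the immunoglobulin family with 5 members, had 23312 bp in old TSA, against 18867, 16533 and 19513 bp. Outside the members old TSA had 16417 bp at Ralgps1, 12822 bp at Col6a3, 9418 bp at Tmcc2, 7712 bp at Pld1, 55525 bp at Tns1 and 20520 bp at Kirrel, which at Col6a3 is less than in young vehicle. In 2 other genes with many members young vehicle had the longest stretch with members included. Fndc3b, which promotes adipocyte differentiation in mouse cells, had 7 members and 31012 bp in old TSA, 19166 bp in old vehicle, 23956 bp in young TSA and 45949 bp in young vehicle. Dnm3, a dynamin, had 7 members and 35014 bp in old TSA, 23153 bp in old vehicle, 24376 bp in young TSA and 39827 bp in young vehicle.

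Some members lay near other members along the chromosome. The counts were made for members only, so whether members cluster more than H3K27ac regions in general was not tested. Another member lay within 10000 bp of 278 of them (30.8%, interval 27.8 to 33.9%). When regions were ordered by position and members with no other region between them were counted as a run, 612 members stood singly and 94 stood in 29 runs of 3 or more. The longest run had 5 members over 397348 bp near Tnp1 on chromosome 1. Runs of 4 lay in Col6a3 (24540 bp), in the 5′ part of Hmcn2 (2296 bp), in Pld1, beside Prex1, and between Gmps and Kcnab1.

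The gene groups were described by the genes in the stretch with a member, to be read beside the 13.8% of all protein-coding genes, and by members among the regions, beside 10.4%. No test was made for a group. Genes with many regions are more likely to hold a member, so that the share of regions is the steadier number. A member counted for a gene can lie inside a neighbouring gene. Without the members, old TSA had 3871 bp at Cebpb, 3355 bp at Ifi204, 9433 bp at Jag1 and 9793 bp at Fgf7. It had 1342 bp at Il2ra, 6237 bp at Nes and 3766 bp at Aff3. At each of these genes another library then had the longer acetylated length. Old TSA stayed the longest at Gsn, Sulf2, Col4a4, Notch2, Bcl2, Prrx2, Hdac4 and Spi1.

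Genes that mark FAPs all had H3K27ac. All 7 in the stretch, among them Prrx1, Cd34, Dpp4 and Twist2, had regions in every library. Members lay at 2 of the 7, Gsn and Mme, and made up 3 of 54 regions (5.56%). Pdgfra and Ly6a lie on chromosomes not analysed here. Gsn (gelsolin, which severs actin filaments) had 2 members, one of them upstream in the promoter printed above, and an acetylated length of 18610 bp in old TSA, 14712 bp in old vehicle, 10437 bp in young TSA and 12255 bp in young vehicle. Both old libraries were thus above both young ones at Gsn.

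Among genes of fibrosis and matrix, 6 of 24 had a member, and members were 20 of 247 regions (8.10%). Besides Col6a3 they were Sulf2, Fbn1, Col4a4, Col5a2 and Col5a1. Sulf2, which trims heparan sulphate and so alters growth factor binding, had 4 members and an acetylated length of 5806 bp in old TSA, 1725 bp in old vehicle, 2913 bp in young TSA and 2274 bp in young vehicle. Col4a4, a basement membrane collagen, had 2878 bp in old TSA, 245 bp in old vehicle, 1522 bp in young TSA and 1440 bp in young vehicle. Fbn1 (fibrillin 1) had 5 members, yet its 21468 bp in old TSA, 11845 bp in old vehicle and 13682 bp in young TSA stood below 34417 bp in young vehicle. Col5a2 was alike, with 6289, 4304 and 3198 bp against 12954 bp in young vehicle. No member lay at Col3a1, Fn1, Postn or Thbs1.

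In focal adhesion and actin, 6 of 14 genes had a member (13 of 119 regions, 10.9%), namely Tns1, Src, Nes, Itgav, Rhoc and Rap1a. Nes, which encodes the intermediate filament nestin, had 6659 bp in old TSA, 375 bp in old vehicle, 6623 bp in young TSA and 4642 bp in young vehicle, so that old vehicle stood apart as the low library there. Src, a tyrosine kinase, had 3 members and 2389 bp in old TSA, 1160 bp in old vehicle, 1614 bp in young TSA and 2969 bp in young vehicle.

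Of genes of transforming growth factor beta and bone morphogenetic protein signalling, 6 of 15 had a member (7 of 58 regions, 12.1%). These were the ligands Bmp2 and Tgfb2, the receptors Acvr1 and Bmpr2, the co-receptor Eng and the inhibitor Skil. Only Bmp2 among them had no H3K27ac peak in its window outside old TSA. The member counted for Eng lay inside the neighbouring gene Fpgs. Tgfb2 had 7175 bp in old TSA, 5412 bp in old vehicle, 5520 bp in young TSA and 7820 bp in young vehicle.

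In Wnt, Notch and Hedgehog signalling, 5 of 20 genes had a member, and members were 15 of 83 regions (18.1%). They were Gli2, the ligand Jag1, the receptors Notch1 and Notch2, and Bcl9, a cofactor of beta-catenin. Notch2 had 5 members and an acetylated length of 18562 bp in old TSA, 11076 bp in old vehicle, 10841 bp in young TSA and 15410 bp in young vehicle. Jag1 had 3 members and 10978 bp in old TSA, 5817 bp in old vehicle, 7432 bp in young TSA and 10332 bp in young vehicle. No member lay at Sfrp2, Frzb, Wnt6 or Wnt10a, which had no H3K27ac region at all.

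Adipogenesis had members at 8 of 14 genes, and these were 16 of 101 regions (15.8%). They were Fndc3b, Cebpb, Foxo1, Sort1, Rxrg, Rxra, Irs1 and Pltp. Cebpb, an early transcription factor of adipocyte differentiation, had 2 members in its window and 3 more for which it was the nearest gene, and its acetylated length was 5196 bp in old TSA, 4088 bp in old vehicle, 4505 bp in young TSA and 4267 bp in young vehicle. Rxrg, a partner of nuclear receptors, had 1 member of 444 bp and 69 tags and no other H3K27ac peak in any library. No member lay at Fabp4 or Fabp5, which encode lipid carriers of adipocytes.

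Of senescence genes and their secretory products, 7 of 20 had a member (11 of 98 regions, 11.2%), among them Bcl2, Csf1, Fgf7, Bmp2, Fgf2 and Il1r1. Bcl2 had 6911 bp in old TSA, 3603 bp in old vehicle, 3893 bp in young TSA and 3833 bp in young vehicle. Fgf7, a growth factor for epithelium, had 3 members and 10640 bp in old TSA, 7605 bp in old vehicle, 6726 bp in young TSA and 9868 bp in young vehicle. No member lay at Il1a, Il1b, Serpine2, Ptgs2 or Igfbp5. Among cell cycle genes 2 of 17 had a member (2 of 29 regions, 6.90%), Kif14 and Pcna, and the Kif14 member of 348 bp was the only H3K27ac region of that gene. The member counted for Pcna overlapped the promoter window of the neighbouring gene Cds2.

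In the interferon response, 7 of 15 genes had a member, from 6 members among 52 regions (11.5%), since Sp110 and Sp140 overlap and share one. Others were Adar, Ifi204, Ifi207 and B2m. Ifi204, a sensor of DNA, had 3992 bp in old TSA, 3452 bp in old vehicle, 3428 bp in young TSA and 3479 bp in young vehicle. Of mesenchymal transcription factors, 11 of 28 had a member (25 of 270 regions, 9.26%). Among these Aff3, with 5 members, had 6017 bp in old TSA, 5614 bp in old vehicle, 608 bp in young TSA and 3725 bp in young vehicle, and Prrx2, with 3, had 7988, 5169, 5387 and 4830 bp in the same order. Of acetylation enzymes and readers, 3 of 7 had a member (4 of 49 regions, 8.16%), namely the coactivator Ncoa3, the bromodomain protein Brd3 and the deacetylase Hdac4. Hdac4 had 4149 bp in old TSA, 1785 bp in old vehicle, 2068 bp in young TSA and 2998 bp in young vehicle. Immediate early genes had a member at 1 of 8, Nr4a2 (1 of 23 regions, 4.35%), and Hox genes at 0 of 10 (0 of 6 regions).

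Markers of other muscle cells were examined for what else the sorted cells could hold. Muscle fibre genes had a peak at 4 of 13 in old TSA and at 2 of 13 in each of old vehicle, young TSA and young vehicle; outside the members old TSA also had 2, so that the difference is the choice of members. Members lay at 3 of them, Jph2, Tnni1 and Casq1, and were 4 of 13 regions (30.8%). The member counted for Casq1 lay inside the neighbouring gene Pea15a. Jph2 (junctophilin 2) and Tnni1 (slow troponin I) had 560 and 518 bp of H3K27ac in old TSA and none in the other libraries. Ttn, Neb, Actc1 and Myl1 were among the fibre genes with no H3K27ac region in any library. The window of Tnnc2, another fibre gene, had H3K27ac but no member. Summed over the list, acetylated length was 10162 bp in old TSA, 7211 bp in old vehicle, 8308 bp in young TSA and 9497 bp in young vehicle.

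Macrophage genes had a peak at 10 of 15 in old TSA, 9 in old vehicle, 8 in young TSA and 10 in young vehicle, and members lay at 2, Spi1 and Mertk (4 of 34 regions, 11.8%). Spi1, the transcription factor PU.1 of myeloid cells, had 1653 bp of H3K27ac in old TSA, 226 bp in old vehicle and none in young TSA or young vehicle, with 217 tags in old TSA and 36 in old vehicle. Ptprc and Ctss had no region. The list summed to 32540 bp in old TSA, 24517 bp in old vehicle, 24080 bp in young TSA and 31425 bp in young vehicle. Lymphocyte genes had a peak at 8 of 16 in each library, and members lay at 3, Il2ra, Cd28 and Cd247 (4 of 27 regions, 14.8%), with sums of 21522, 13063, 17620 and 20220 bp in old TSA, old vehicle, young TSA and young vehicle. Il2ra had 2629 bp in old TSA, 1297 bp in old vehicle, 1335 bp in young TSA and 1607 bp in young vehicle. Endothelial genes had a member at 2 of 11 (2 of 59 regions, 3.39%), with sums of 87685, 55631, 91308 and 101565 bp. Pericyte and smooth muscle genes had one at 3 of 5, Myl9, Rgs5 and Lmod1 (3 of 7 regions, 42.9%). Their sums were 4747, 2473, 2495 and 2977 bp. Muscle stem cell genes had one at 2 of 11, Sdc4 and Vcam1 (4 of 20 regions, 20%). Their sums were 19041, 13671, 14779 and 17933 bp, and Pax3 and Des had no region. Tenocyte genes had one at 3 of 4, Prelp, Prg4 and Fmod (3 of 15 regions, 20%). Their sums were 14119, 10857, 7248 and 12735 bp. Schwann and glial genes had a member at 0 of 3 (0 of 14 regions) and neural genes at 0 of 21 (0 of 5 regions). Outside the members the old TSA sum was 8739 bp for fibre, 30874 bp for macrophage, 19799 bp for lymphocyte and 17090 bp for stem cell genes, each below young vehicle, and 3490 bp for pericyte and 12859 bp for tenocyte genes, each above the 3 other libraries. What part other cell types have in the members was not tested.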

How the data were processed

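ChIP-seq of H3K27ac and H3K9/14ac was available for FAPs of old and young mdx mice given TSA or vehicle, 1 library per mark and group. Per the file headers, the authors wrote each of the 8 peak lists with HOMER, each library set against itself, and the deposited tag count of a peak is a whole number of reads that is not normalized. Among other tools, the submitters' processing notes list Bowtie 0.12.7, MACS2, HOMER and build GRCm38, with no order or role. Total reads per library are not given in the sources used here, so the tags in peaks stand in for depth, and weak peaks are the first to be missed in a shallow library.

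Each list ends inside 1 incomplete line, which was left out, and the comparison was held to the stretch that all lists of the marks compared cover. Start and end were read as 1-based and inclusive, and adjoining peaks were merged. Gene positions were those of RefSeq on GRCm38.p6, in a table without strand or exons; 3789 protein-coding genes lie in the stretch. A gene's window is its body and 10000 bp either side, and tags of a peak across a window's border were shared out by overlap. Promoter sequences came from RefSeq for 3190 of these genes. No genome was used here, so motifs were searched in promoter windows and not in the regions, as had been planned. Python 3.11.15, numpy 2.4.6, pandas 2.3.3, scipy 1.17.1 and matplotlib 3.10.9 were used, and merging and classing were checked on simulated peaks.

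No test between groups was made, because each group had 1 library. The members, the 22 gene lists and the rules were chosen with earlier results of these data known. Genes and regions were named by rule: the 10 genes with the most members, the 10 members with the most tags and the 10 widest, up to 6 genes of each list by member bp, the 10 members by tags with H3K9/14ac in old TSA alone, the 5 with most tags at a gene end, the 5 closest to and farthest from another library's peak, and the 5 farthest from a gene. Members at gene ends far from other peaks, further list members and genes whose window held members only were singled out after their values were seen. The alternatives were the distance at which peaks merge, the peaks entering the lists, list length, the size of gene ends and windows, and the overlap with H3K9/14ac. The 4 input samples were left unused. A few genes that the rules name are not reported here.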

Additional observations from a re-analysis of the deposited data

How the results depend on the processing

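The number of regions with a peak in old TSA alone depends on which peaks enter the lists. It was 902 as reported, 491 and 425 when peaks up to 500 and 1000 bp apart were merged, 355 and 398 with the upper 50% of each list by tags and by width, and 359 and 429 with all lists shortened to 5727 peaks by tags and by width. With only the old TSA list shortened to the length of the old vehicle list by tags, an alternative chosen after seeing the data, it was 254. Keeping adjoining peaks apart, also chosen after seeing the data, gave 903. The share at gene ends was 8.76% and 8.71% with merging over 500 and 1000 bp, 25.1% and 21.1% with the upper 50% by tags and by width, and 19.6% with gene ends of 2500 bp. The share inside genes was 43.1%, 47.5% and 46.0% under the last 3 of these settings, and the share outside genes was 42.1% with merging over 1000 bp and 31.8% and 31.4% with the upper 50% by tags and by width. The share with old TSA H3K9/14ac was 31.1% and 26.8% with the upper 50% by tags and by width, 19.9% and 16.9% with equal lists by tags and by width, 19.6% with the old TSA list shortened, and 19.8% counting peaks within 1000 bp. In the same order of merging, upper 50%, equal lists and shortened old TSA list, the median width was 357, 364, 916, 809.5, 568, 523 and 569.5 bp. The genes with a member numbered 328, 278, 286, 338, 252, 308 and 195 in that order, and 343 with no flank. The median tags were 52 with merging over 1000 bp, 135 and 120.5 with the upper 50%, 77 and 72 with equal lists and 77 with the shortened old TSA list. Of 72 alternative values, 45 moved beyond their counting interval or, for counts, by over 1.5 times, and 27 did not. Where fewer peaks enter, weak members leave by construction; the cause of the other shifts was not tested. No paired analysis was possible because each group had 1 library, and no library could be left out for the same reason. In the longer stretch that both TSA lists cover, 27.8% of the regions merged from these lists lacked a young TSA peak in the compared part and 27.6% in the rest.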

Other observations

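Of the genes with a member, 49 had no other H3K27ac region in their window, so that old TSA was the only library with any peak there; they were singled out after their values were seen. By member bp the first were Etnk2, an ethanolamine kinase (2 members, 1782 bp), Ren1, which encodes renin and shares a member with Etnk2 (1358 bp), Gpr37l1 (2 members, 1146 bp), the potassium channel Kcna2 (924 bp), the histamine receptor Hrh3 (831 bp), Fam210b (2 members, 776 bp), Bmp2 (745 bp), Ism1 (737 bp) and Cd82 (2 members, 729 bp). The others include the adrenergic receptor Adra1d (361 bp), the co-stimulatory ligand Tnfsf4 (370 bp) and the cyclase subunit Gucy1a1 (402 bp).

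The 77 members beyond 50000 bp of a peak of another library were 12 at a gene end, 32 inside a gene and 33 outside genes. Members beyond 10000 bp had H3K9/14ac in old TSA at 11.6% (interval 7.33 to 17.2%), in old vehicle at 17.1%, in young TSA at 15.5% and in young vehicle at 12.2%. For members within 1000 bp the shares were 14.0%, 14.0%, 14.0% and 6.69% in that order.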
